A study of Mus musculus with 14 samples.

Results

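The repeat-assigned tags are the 20-base sequence signatures that the submitters' annotation put in its repeat class, coded 0, because each matched the mouse genome more than 100 times. They were 2366 of the 1538190 distinct tags read in 14 libraries, and they held 610321 of 45337175 counts, or 1.35%. The annotation gave all of them the single name REPEAT, so no repeat element could be taken from it and the tag itself was the unit that was counted. Levels are given as CPM, a tag's counts scaled to a common library total.

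The libraries came from C57BL6 mice and were made by massively parallel signature sequencing, in which cDNA tags are cloned onto microbeads and read in parallel. Hippocampus, whole spinal cord, bone marrow, liver, stomach, parotid gland and pancreas, 7 tissues in all, each gave 1 female and 1 male library, and no treatment is named. The female liver library is labelled right lobe and the male one left lobe. Neither the age of the mice nor the number of animals behind each RNA is known here. The p-values for differences between tissues therefore measure the spread between single libraries of the same tissue.

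Mouse B1 and B2 are short interspersed elements, copied into RNA by RNA polymerase III and moved by the machinery of LINE-1 (L1), the long interspersed element that encodes its own reverse transcriptase. Copies of all of them also lie in introns and in the 3′ ends of ordinary mRNAs, and B2 carries signals for polyadenylation in its tail. cDNA was cut with DpnII, which recognises GATC, and the bases at the site nearest to the 3′ end were kept, so a tag marks an RNA whose last GATC lies in a repeat. A tag with this many genome matches cannot be placed, and transcripts of the elements themselves, mRNAs that end in a copy, unspliced RNA and genomic DNA cannot be told apart.

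The following tags lead the families that the results turn on. Families were formed by linking tags that differ at 1 base. Element names were given from general knowledge of the mouse elements' sequences, not from the deposited files. Capitals mark the bases in which a tag differs from the lead tag of its family, counted from 1 at the 5′ end. All begin with the DpnII site, written in lower case.
B2 forward, lead: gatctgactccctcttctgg
B2 forward, C8T and T9G: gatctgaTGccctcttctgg
B2 forward, T9G: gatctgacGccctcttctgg
B2 forward, T9A: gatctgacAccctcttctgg
B2 forward, A7G and T9G: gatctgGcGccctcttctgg
B2 reverse, lead: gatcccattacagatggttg
B2 reverse, C5T, C6T and A7G: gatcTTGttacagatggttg
B1 reverse, lead: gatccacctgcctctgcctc
B1 forward, lead: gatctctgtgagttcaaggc
L1, family 7: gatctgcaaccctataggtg
L1, family 10: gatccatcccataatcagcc
L1, family 13: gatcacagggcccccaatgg
A run: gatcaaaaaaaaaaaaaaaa
T run: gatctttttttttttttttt

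Linking gave 774 families, of which 561 held 1 tag and 58 held 10 or more. The 8 most abundant families took 81.2% of the repeat counts. B2 read in the forward direction was 1 family of 83 tags and held 60.2% of the repeat counts. B2 in reverse (66 tags) held 5.10%, B1 forward (77 tags in 6 families) 5.50%, B1 reverse (99 tags in 3 families) 4.58% and L1 (178 tags in 9 families) 4.37%. The A run, a single tag, held 6.11%, and the T run 0.832%. The other 1860 tags were given no name and held 13.3%. In the promoter windows described below, some of these lay opposite L1 tags at the same sites. Family 58 lay opposite L1 family 7 at 12 sites and family 32 opposite L1 family 10 at 7 sites. The L1 value therefore covers the named families only. Counts were concentrated: the B2 forward lead tag alone took 24.4% of them and 10 tags took 57.7%, while 194 tags had 1 count in all. A total of 177 tags occurred in all 14 libraries and carried 83.6% of the counts.

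Where the tags lie was examined in RefSeq promoter windows (GRCm38.p6, from 250 bases before to 50 after each gene's start), since the files give no positions. Of 32817 windows, 337 tags found a match in 831 places. The motif AATAAA, the main polyadenylation signal, stood within 60 bases after the B2 forward tag at 57 of the 74 places with that much sequence (77.0%), against 2.64% of 32294 GATC sites of all windows, read on both strands. It stood after none of the 50 such places of the B2 reverse tags. At 47 sites a B2 forward and a B2 reverse tag lay on the opposite strands of the same GATC, so both read outward from 1 site of the element. L1 family 13 preceded L1 family 7 by 53 bases in 4 windows. A match in a window describes sequence only and does not show that a count came from there. Each line below gives the strand on which the tag was found, with the tag in capitals.
B2 forward, chr3:157925564-157925653, minus strand, in the window of 1810013D15Rik: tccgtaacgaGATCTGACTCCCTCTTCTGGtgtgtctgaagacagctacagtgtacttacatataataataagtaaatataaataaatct
B2 reverse, chr15:83259532-83259621, minus strand, in the window of C130064B19Rik: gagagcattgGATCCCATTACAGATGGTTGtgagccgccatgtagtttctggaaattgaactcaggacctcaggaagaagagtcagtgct
L1 family 7, chr2:117812791-117812880, minus strand, in the window of Gm13985: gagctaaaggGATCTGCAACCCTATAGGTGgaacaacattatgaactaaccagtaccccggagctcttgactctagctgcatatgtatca

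Library totals ran from 2194028 to 3834568 counts. Tags assigned to a genome position, but to no gene or repeat, made up 11.96% of counts in the female spinal cord library, 2.74% in the male one and at most 4.99% in the others. The female stomach library had 18.6% of its counts in tags without assignment, against 4.18% in the male one, and its levels of gastric pepsinogen (Pgc) were 62088 CPM against 205094. Both stomach libraries held pancreatic transcripts, with amylase (Amy2a) at 1570 and 875 CPM. The check genes of each tissue were highest in its own libraries, except Snap25, a gene of neurons, which was as high in spinal cord (850 and 881 CPM) as in hippocampus (797 and 829 CPM). Skeletal muscle markers summed to 108 and 148 CPM in parotid gland. No pair of libraries of a tissue agreed within sampling noise: the chi-square per degree of freedom over repeat tags ran from 1.39 (parotid gland, p = 4.23e-05) to 23.2 (spinal cord).

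The share of counts taken by repeat-assigned tags was highest in the nervous tissues and lowest in the pancreas. In spinal cord it was 3.50% (female) and 2.41% (male), and in hippocampus 2.69% and 2.28%. Bone marrow had 1.26% and 0.989%, stomach 1.07% and 1.15%, and liver 1.29% and 0.893%. Parotid gland had 0.443% and 0.449%, and pancreas 0.210% and 0.151%. Both libraries of each nervous tissue exceeded the 10 others, and both pancreas libraries lay below all others.

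As means the shares were 2.96% ± 0.769 (SD, n = 2) in spinal cord, 2.49% ± 0.295 in hippocampus, 1.13% ± 0.195 in bone marrow, 1.11% ± 0.0578 in stomach, 1.09% ± 0.282 in liver, 0.446% ± 0.00470 in parotid gland and 0.180% ± 0.0416 in pancreas. Spinal cord and hippocampus overlapped, as did bone marrow, stomach and liver. The 95% exact binomial interval for the lowest share, male pancreas, was 0.147% to 0.155%, and such intervals cover counting error only. Libraries of the same tissue were closer in log2 share than libraries paired at large (sum of squared differences 0.994, exact one-sided permutation test over 135135 pairings, p = 0.000303). In pancreas, transcripts of digestive enzymes took much of the library, with Amy2a alone at 316297 and 224460 CPM. In bulk tissue, fewer cells with such RNA and less RNA per cell cannot be told apart.

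**Figure D1:**
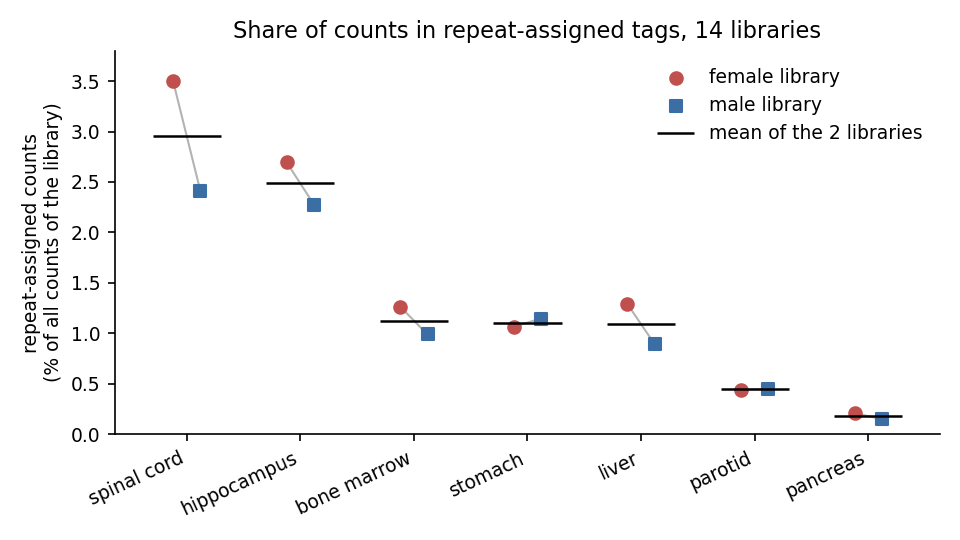
Percent of all counts of a library that fell in repeat-assigned tags, for the female and male library of 7 tissues, with the tissue mean marked. Spinal cord (3.50% and 2.41%) and hippocampus (2.69% and 2.28%) sit above the others, and pancreas (0.210% and 0.151%) sits below.

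B2 forward set the share in most libraries. Its summed level was 16842 and 15080 CPM in female and male hippocampus and 15674 and 17245 CPM in spinal cord. It was 9298 and 6741 CPM in bone marrow, 8130 and 5429 CPM in liver and 5680 and 4147 CPM in stomach. Parotid gland had 2775 and 2799 CPM and pancreas 1500 and 996 CPM. Both nervous tissues lay above the rest in both sexes, and both pancreas libraries lay below.

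Relative to other transcripts this family moved little. Folds here and below come from edgeR's quasi-likelihood test with TMM scaling, which sets libraries to a common level over most features, and compare a tissue with the mean of the other 6 on the log2 scale. The family's summed counts were not called in any tissue (log2 from -0.69 to 0.59), where a feature was called if it changed 2-fold or more with an adjusted p (Benjamini-Hochberg, all features) below 0.05. CPM and the scaled fold part ways where a few transcripts take much of a library, and the TMM factor was 0.160 in male pancreas and 2.09 in male spinal cord.

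The B2 forward lead tag was read at 7058 and 6371 CPM in hippocampus, at 6306 and 7203 CPM in spinal cord and at 464 to 4125 CPM in the other 10 libraries. The variant with C8T and T9G followed it in rank, at 3336 and 2878 CPM in hippocampus and 2550 and 1930 CPM in liver. Liver was the only tissue in which this variant exceeded the lead tag: lead over variant was 0.954 and 0.789 there and 1.81 to 2.51 in the other 12 libraries, a ratio chosen after its values were seen. The variant with A7G and T9G also stood high in liver, at 671 and 250 CPM, against 12.7 to 222 CPM elsewhere. Of the 48 sequences that differ from the lead tag at 1 base after the site, all 48 were read, but only 10 were in the repeat class, and those 10 held 74864 of their 87491 counts. The annotation put the others under gene or genome-position codes.

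B2 reverse was far lower. In mean CPM it ranked the tissues as B2 forward did, except that stomach and parotid gland changed places. It was read at 2310 and 1160 CPM in female and male spinal cord, 1545 and 1252 CPM in hippocampus, 637 and 626 CPM in bone marrow, 446 and 369 CPM in liver, 253 and 183 CPM in stomach, 222 and 230 CPM in parotid gland, and 78.6 and 41.2 CPM in pancreas. Its lead family rose in spinal cord (log2 1.25 ± 0.27 SE, edgeR adjusted p = 0.00106) and fell in stomach (log2 -1.44 ± 0.33, adjusted p = 0.00338). Without the female spinal cord library the spinal cord fold was 0.80 and not called, whereas the stomach fold was -1.36 and still called. Forward over reverse B2 was 6.78 in female spinal cord, 14.9 in male spinal cord and 10.8 to 24.2 in the other libraries.

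**Figure D2:**
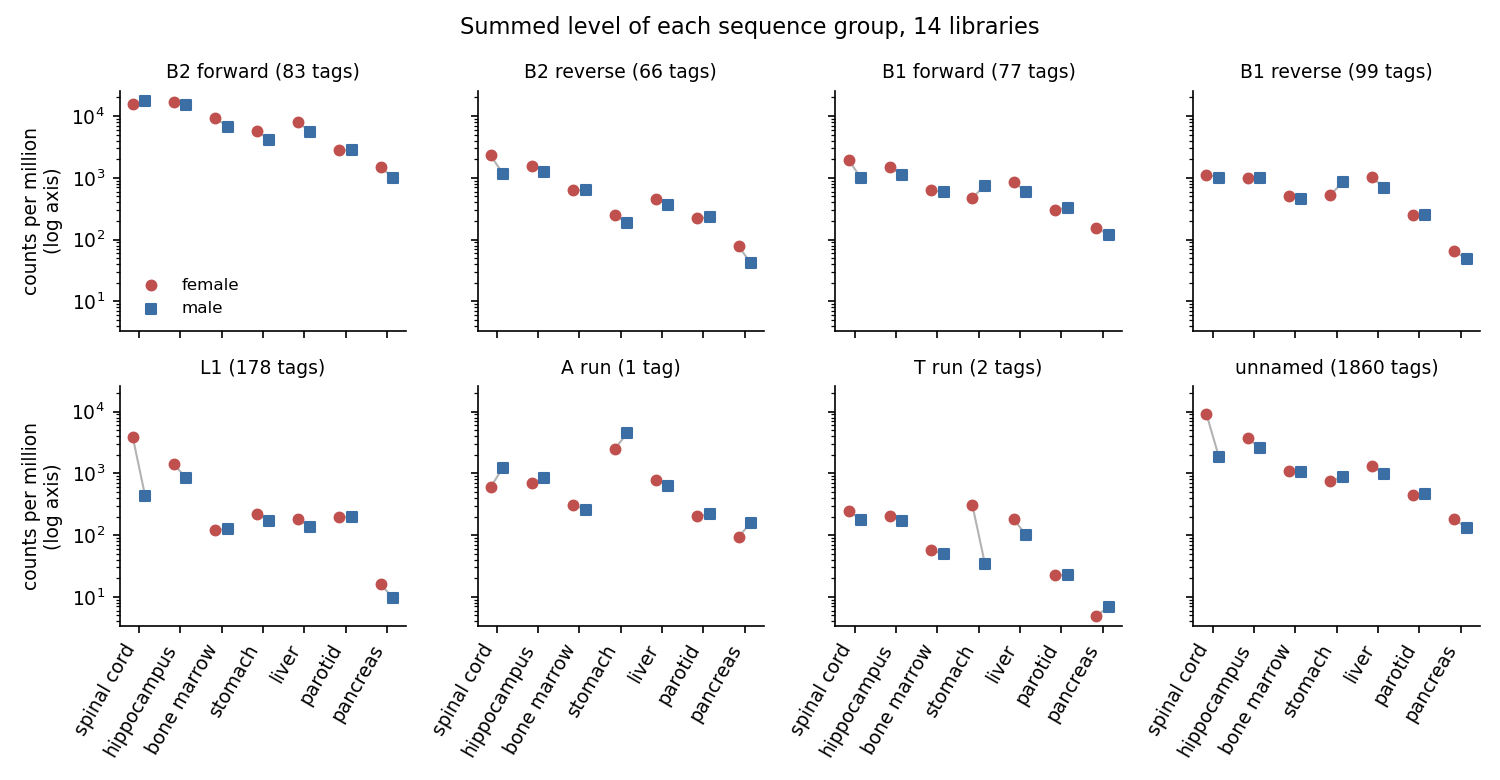
Summed level of each sequence group in every library, in CPM on a log axis, with 1 point per library. B2 forward lies highest in 13 of 14 libraries, and L1 in female spinal cord (3906 CPM) stands away from its male partner (433 CPM).

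B1 was read from both strands. B1 forward stood at 1973 and 990 CPM in spinal cord, 1502 and 1094 CPM in hippocampus and 119 to 859 CPM elsewhere. B1 reverse stood at 1127 and 1011 CPM in spinal cord, 992 and 978 CPM in hippocampus, 1023 and 697 CPM in liver and 48.7 to 864 CPM elsewhere. Forward over reverse was below 1 in both liver and both stomach libraries (0.840, 0.850, 0.912 and 0.867). It was also below 1 in male spinal cord (0.980), against 1.75 in the female one. In pancreas it was 2.39 and 2.44. Of the B1 reverse level in liver, 392 and 241 CPM came from 1 variant, C14T of the lead tag. This variant was at most 3.65 CPM elsewhere, and the liver ratio without it was not computed.

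Of the 9 B1 families, 5 were called in some tissue. B1 forward family 9 rose in hippocampus (log2 1.19) and in spinal cord (1.11), and only the hippocampus call remained without the female spinal cord library, at 1.33. B1 forward family 6 was called higher in pancreas (log2 1.004, adjusted p = 0.041) and lower in bone marrow (-1.05). Scaled by library totals instead of TMM, the pancreas value turned to -1.84. B1 forward family 33 rose in spinal cord (2.15, adjusted p = 0.00257) and was lower in bone marrow (-2.03, adjusted p = 0.0253), and its spinal cord value was -0.36 without the female library. Without either bone marrow library it was not called in bone marrow, at -2.01 and -2.04. B1 forward family 31 rose in spinal cord (1.27, adjusted p = 0.000956), with 1.31 and still called without the female library and 1.15 and not called without the male one. B1 reverse family 18 rose in hippocampus (1.07, adjusted p = 0.00288), and was not called without either hippocampus library or without the male spinal cord library, where it was 0.98. The lead B1 reverse family was 0.998 ± 0.246 in liver (adjusted p = 0.00404), just short of the fold that a call needs. Its sum includes the C14T variant, and the fold without that variant was not tested.

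L1 tags were scarce outside the nervous tissues and differed 9.02-fold between the 2 spinal cord libraries. Their sum was 3906 CPM in female and 433 CPM in male spinal cord, and 1394 and 830 CPM in hippocampus. In the other 10 libraries it ran from 9.60 CPM in male pancreas to 223 CPM in female stomach. L1 was 11.2% of repeat counts in female spinal cord, 1.79% in the male one, 5.17% and 3.65% in hippocampus and 4.41% and 4.32% in parotid gland. The male spinal cord library exceeded all 10 non-nervous libraries, but by less than its distance from the female one.

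L1 family 7 was read at 1196 and 159 CPM in spinal cord, 360 and 270 CPM in hippocampus and 3.77 to 116 CPM elsewhere. It rose in spinal cord (log2 2.24 ± 0.38, adjusted p = 0.000122) and in hippocampus (1.19 ± 0.38, adjusted p = 0.0161). L1 family 10 was read at 482 and 51.9 CPM in spinal cord and rose there (2.36 ± 0.43, adjusted p = 0.000206). Without the female spinal cord library neither was called in spinal cord (0.44 and 0.19), and family 7 was still called in hippocampus (1.52).

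The same female library held the most genome-position tags. Female over male in spinal cord was 9.02 for L1, 4.92 for the unnamed tags, 4.37 for genome-position tags and 1.99 for B2 reverse, and 0.909 for B2 forward. It held 2162 distinct repeat tags against 1216 in the male library. The part of unspliced RNA or DNA in this difference was not tested. Summed skeletal muscle markers were 67.7 CPM in the female and 216 CPM in the male spinal cord library, and blood markers 4193 and 5033 CPM, and their part was not tested.

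Of the L1 families, family 10 was raised in parotid gland. It was read at 124 and 98.6 CPM there, a range that overlapped hippocampus (108 and 74.2 CPM) and lay above bone marrow, liver, pancreas and stomach (1.03 to 23.1 CPM). It rose against the mean of the other tissues (log2 2.99 ± 0.39, adjusted p = 1.56e-05). Its lead tag was 109 and 84.5 CPM in the 2 parotid libraries, with a log2 fold of 4.56. L1 family 7 stood at 43.5 and 60.5 CPM in parotid gland. L1 as a whole did not move one way there: family 21 was lower (-2.15 ± 0.66, adjusted p = 0.0318), and the other 7 families were not called, at -1.38 to 0.15. The family 21 call was lost without the female or the male parotid library (-1.94 and -2.28) and without the male bone marrow library (-2.10).

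The A run, a DpnII site followed by adenines only, was highest in stomach. It was read at 2450 CPM in female and 4444 CPM in male stomach, against 93.5 to 1240 CPM in the other 12 libraries, so the groups did not overlap. It made up 22.99% and 38.7% of the repeat counts of stomach, where B2 forward was 53.3% and 36.1%, and at most 10.6% elsewhere. It rose in stomach (log2 2.67 ± 0.26, adjusted p = 3.09e-07) and was lower in bone marrow (family fit -1.75 ± 0.36, adjusted p = 0.000785). Such a tag is what a GATC directly before a poly(A) tail would give, and also what an internal run of adenines would give, and these cannot be told apart.

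The T run, the opposite letters, was read at 302 CPM in female and 34.6 CPM in male stomach. In the other tissues it was 246 and 177 CPM in spinal cord, 203 and 169 CPM in hippocampus, 180 and 99.3 CPM in liver, 57.1 and 49.5 CPM in bone marrow, 22.4 and 22.4 CPM in parotid gland, and 4.99 and 6.86 CPM in pancreas. It was not called for stomach as a tissue. Male over female in stomach was -3.50 on the log2 scale, which sets 1 library against 1. The stomach pair was also the farthest apart over genes, with a chi-square per degree of freedom of 67.7, and 13.2% of all features were called female higher there. The fit takes the spread for this value from the other tissues (SE 0.35, against 0.81 to 1.08 for the same value in each of those), so its p-value is too small and is not used here.

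**Figure D3:**
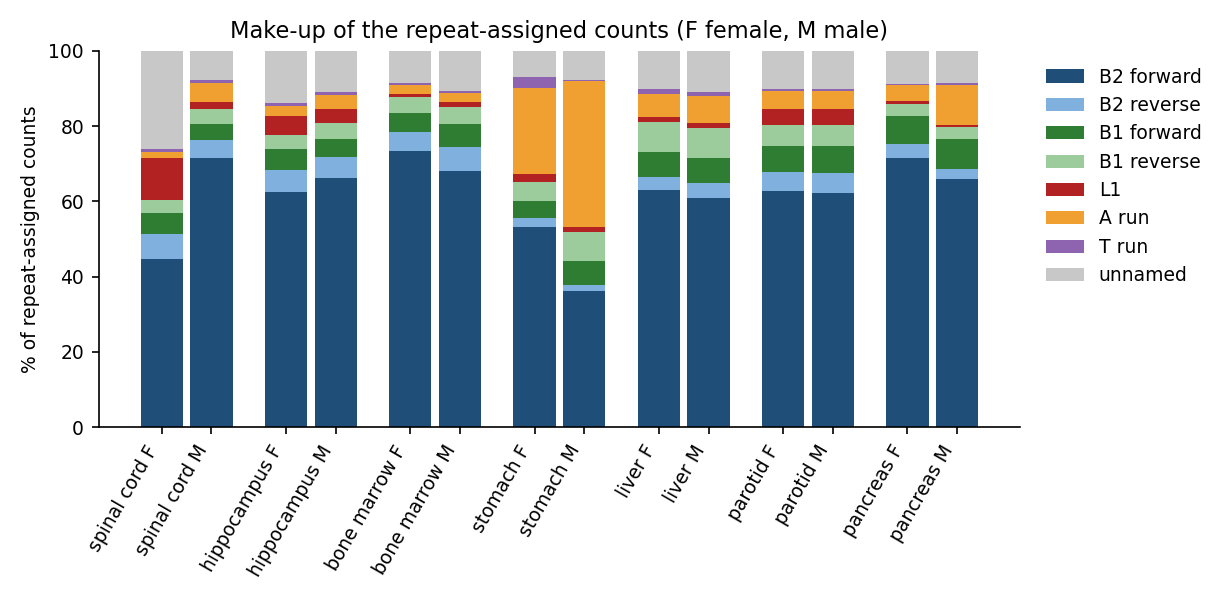
Make-up of the repeat counts of each library in percent, by sequence group. B2 forward is the largest part in 13 libraries, while the A run reaches 22.99% and 38.7% in stomach and L1 11.2% in female spinal cord.

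Tag by tag, 612 of the 2366 passed the filter on low counts (about 3.00 CPM in at least 2 libraries) and were tested together with the gene clusters, giving 15114 features over which p-values were adjusted. The 612 held 96.0% of repeat counts, and 1754 tags were not tested. Of the 612, 320 reached the minimum only through libraries of the nervous tissues, so counts of higher tags there describe what passed and are no support for a difference. Only 60 reached it in all 7 tissues.

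In spinal cord 361 of the 612 tested tags were called higher and 7 lower, where 27.8% and 8.64% of all features were. In hippocampus 299 were called higher and 12 lower, where 28.4% and 12.4% of all features were. Among the 100 tags with the highest mean level, a mean that 1 tissue can also carry, 44 were higher and 2 lower in spinal cord and 35 and 4 in hippocampus, which is likewise a description. By group, 63 of 66 tested L1 tags were called higher in spinal cord and 49 in hippocampus, 39 and 23 of 52 B2 reverse tags, and 31 and 30 of 81 B2 forward tags.

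The spinal cord counts rested on the female library. Without it 71 tags were higher and 6 lower of 635 tested, where 23.2% of all features were called in either direction. The higher tags then included 24 of 82 B2 forward, 9 of 68 L1 and 2 of 54 B2 reverse tags. Without the male library the median log2 fold was 3.48 over the 968 tested tags and 0.236 over all features. Without the female library these medians were 1.06 and 0.257. In hippocampus the counts were 321 and 11 of 635 tested without the female spinal cord library, with 58 of 68 L1 tags higher. In that fit 38.9% of all features were called in either direction. Fewer tags were called in hippocampus when either of its own libraries was left out. The median log2 fold of the tested tags was then 1.63 without the male and 2.03 without the female library, against 1.55 with both.

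In the other tissues a smaller share of the tested repeat tags than of all features was called higher, and the same held for lower calls except in stomach. Bone marrow had 31 higher and 53 lower, or 5.07% and 8.66% of the tested tags, where 18.5% and 14.6% of all features were called. Liver had 51 and 27 (8.33% and 4.41% of tags, against 17.6% and 10.4% of all features). Stomach had 24 and 29 (3.92% and 4.74%, against 18.4% and 3.43%). Parotid gland had 25 and 16 (4.08% and 2.61%, against 10.7% and 3.87%), and pancreas 14 and 6 (2.29% and 0.980%, against 6.55% and 2.79%). In stomach 13 of 52 B2 reverse tags were lower and 12 of 53 B1 reverse tags higher. Some tissue difference was called for 469 of the 612 tags, where 80.0% of all features had one.

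Scaled by library totals, higher and lower tags were 513 and 2 in hippocampus, 552 and 0 in spinal cord, 78 and 19 in bone marrow, 66 and 19 in liver, 41 and 12 in stomach, 15 and 80 in parotid gland and 2 and 364 in pancreas. That scale moved the median fold of all features from 0.19 to 1.27 in hippocampus, from 0.27 to 1.38 in spinal cord, from -0.26 to 0.38 in bone marrow and from -0.54 to -3.07 in pancreas. The balance of higher and lower tags in bone marrow, stomach, parotid gland and pancreas therefore depends on the scale, and TMM folds describe repeat tags relative to most other transcripts. The share of all features called on the scale of library totals is not given here. The counts on that scale are therefore a description and no support for a difference of repeat tags.

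**Figure D4:**
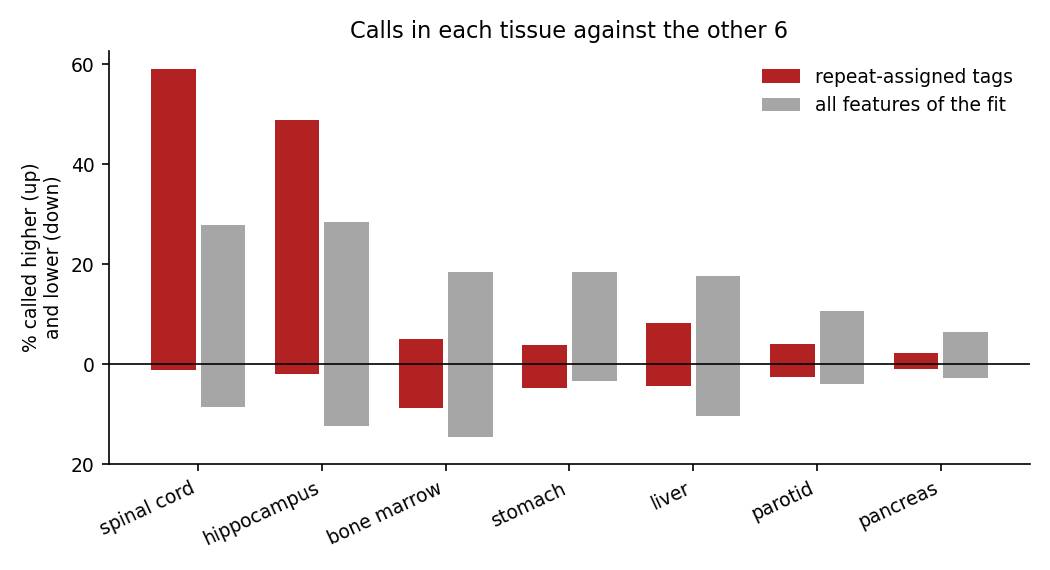
Percent of the 612 tested repeat-assigned tags (red) and of all 15114 features (grey) called higher (upward bars) or lower (downward bars) in each tissue against the mean of the other 6. Red bars exceed grey ones upward in spinal cord (59.0% against 27.8%) and hippocampus (48.9% against 28.4%), where 320 of the tags passed the filter only through these tissues.

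Some tags were much higher in 1 tissue than in the others, and several of them were single variants of families read in every tissue. A B1 reverse variant in liver, C14T of the lead tag, was read at 392 CPM (female) and 241 CPM (male) and at 0 to 3.65 CPM in the other 12. It passed the filter almost wholly through liver, so its levels are a description and no fold is given. A B1 forward variant, C20T of its lead, was read at 137 and 71.4 CPM in liver and at most 15.4 CPM elsewhere (5.44 ± 0.29, adjusted p = 4.26e-11). An unnamed tag stood at 40.5 and 49.5 CPM in liver and at most 5.01 CPM elsewhere (5.76 ± 0.37). These and the next are shown because their libraries did not overlap with any other tissue.
Liver, B1 reverse: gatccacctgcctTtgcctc
Liver, B1 forward: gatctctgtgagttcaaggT
Liver, unnamed: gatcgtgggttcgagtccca
Hippocampus, B2 forward: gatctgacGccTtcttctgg
Spinal cord, B2 forward: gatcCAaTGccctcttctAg
Bone marrow, unnamed: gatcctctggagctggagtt
Parotid gland, unnamed: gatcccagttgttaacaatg
Pancreas, B1 reverse: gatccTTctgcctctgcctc
Stomach, unnamed: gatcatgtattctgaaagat

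The hippocampus variant of B2 forward, with T9G and C12T, was read at 136 and 151 CPM there and at most 23.1 CPM elsewhere, in male spinal cord (log2 4.59 ± 0.30, adjusted p = 1.04e-09). The spinal cord variant, with T5C, G6A, C8T, T9G and G19A, was read at 50.2 and 61.2 CPM and at most 19.1 CPM elsewhere (2.96 ± 0.25, adjusted p = 3.93e-08). Each of these variants had its highest level outside its tissue in the other nervous tissue. The B2 forward family, summed, was called in neither.

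The bone marrow tag was read at 55.9 and 38.8 CPM and at most 4.10 CPM elsewhere (log2 4.21 ± 0.31, adjusted p = 6.98e-09). The parotid tag was read at 28.7 and 33.6 CPM and at most 16.3 CPM elsewhere (3.38 ± 0.28, adjusted p = 7.23e-08). The stomach tag was read at 35.99 and 19.6 CPM and at most 7.72 CPM elsewhere. The pancreas tag, the single repeat tag whose 2 pancreas libraries exceeded the other 12, was read at only 7.99 and 4.46 CPM. These last 2 tags passed the filter through the libraries of their own tissue, with at most 1 other library at the minimum, so only their levels are given. All 4 sets of values stand apart from the other tissues, by the widest ratio in bone marrow and the narrowest in parotid gland.

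Both libraries of a tissue lay above the other 12 for 54 tested tags in spinal cord, 36 in hippocampus, 25 in liver, 18 in bone marrow, 6 in stomach, 3 in parotid gland and 1 in pancreas. Over all features this held for 11.6%, 16.7%, 9.24%, 14.2%, 5.66%, 1.30% and 0.437%. In pancreas 218 tags lay below all other libraries, where 48.3% of all features did.

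Between hippocampus and spinal cord 3 of the 612 tags were called, where 5.62% of all features were. The count moved with the libraries used, as did the share over all features. It was 30 of 970 without the female and 32 of 971 without the male stomach library, where 12.4% and 12.6% of all features were called. The median log2 fold of the tested tags was -0.284 with all libraries. It was 0.467 without the female and -1.22 without the male spinal cord library. Without the female or the male hippocampus library it was -0.0912 and -0.832. Summed by family, 1 of 219 was called, where 6.07% of all features of that table were. It was an unnamed single tag at 5.35 and 3.97 CPM in spinal cord and at most 0.811 CPM elsewhere. This tag reached the minimum of the filter only in the spinal cord libraries, so its levels are a description and its call is no support for a difference. The hippocampus variant above was higher in hippocampus (log2 2.86, adjusted p = 0.000849), as was the B2 forward tag with C8T, T9G and T18C, read at 67.3 and 63.8 CPM there and at most 18.5 CPM elsewhere (1.87, adjusted p = 0.0124). The spinal cord variant above was lower in hippocampus (-1.55, adjusted p = 0.0110), where it was read at 17.9 and 19.1 CPM. All 3 were B2 forward tags, and none of the 66 L1 tags was called, with the 2 spinal cord libraries 9.02-fold apart in L1.

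Between the sexes, the repeat share was lower in the male library in 5 of 7 tissues. The mean male over female log2 ratio was -0.29 ± 0.26 (SD, n = 7), a fold of 0.819, and did not pass the exact two-sided sign-flip permutation test (p = 0.0625, with 0.015625 the smallest that 7 pairs allow). Over assigned counts the male share was lower in 6 of 7 tissues, at -0.31 (exact p = 0.0312). No single tag was called for sex over all tissues (edgeR, smallest adjusted p = 0.0707), where 0.0529% of all features were. At an unadjusted p under 0.05 there were 191 tags, all higher in female libraries, and DESeq2 also called none. The share of all features under that unadjusted limit is not given, so the 191 are no support for a female bias of repeat tags. In spinal cord, female over male was 9.02 for L1 and 4.92 for the unnamed tags. The part of the female spinal cord library in the 191 was not tested. Without the female or the male stomach library 110 and 112 tags were called, and without the female or male hippocampus library 13 and 15, in fits that tested more tags. The share of all features called for sex in those fits is not given here. The counts are therefore a description and no support for a sex difference of repeat tags. Summed by family, 3 of 219 were called, all lower in male libraries, where 0.0883% of all features of that table were. All 3 were unnamed: family 61 (16 tags, -3.48 ± 0.58, adjusted p = 0.0282), family 102 (16 tags) and family 98 (9 tags, -2.57 ± 0.48, adjusted p = 0.0493). Among male libraries, family 102 reached the minimum of the filter in hippocampus only, at 3.94 CPM. Its levels are therefore a description, and its call is no support for a difference. Family 61 was read at 62.7 and 5.95 CPM in female and male spinal cord, at 22.5 and 7.31 CPM in hippocampus, at 92.9 and 0.791 CPM in liver and at most 2.55 CPM elsewhere. The female spinal cord library was the highest for the other 2, at 50.8 and 45.1 CPM. Their lead tags are shown as the only families called for sex.
Family 61: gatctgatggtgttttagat
Family 102: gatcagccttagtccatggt
Family 98: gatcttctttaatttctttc

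The median log2 male over female was -0.55 over the 612 tags and -0.0098 over all features. By tissue, the median over tags was -1.47 in spinal cord, -0.51 in hippocampus, -0.433 in stomach and -0.00491 in liver. In bone marrow, pancreas and parotid gland it was -2.93e-11, -8.01e-15 and -2.24e-15. Values this small can come from tags with few or no counts in a pair, so they do not show equal levels. Female over male of all repeat counts was 1.28 in bone marrow, 1.39 in pancreas, 0.985 in parotid gland and 1.45 in liver.

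Within spinal cord, 36 tags were called higher in the female library and none in the male one, where 0.238% of all features were called female higher, so that all 36 female-higher calls of the table were repeat tags. They comprised 11 L1, 24 unnamed and 1 B1 forward tag. L1 family 7 was -3.05 ± 0.62 male over female (adjusted p = 0.0290) and L1 family 10 was -3.35 ± 0.61 (adjusted p = 0.0115). That the spinal cord difference exceeded that of the other 6 tissues was not called for these families (adjusted p = 0.303 and 0.157) nor for any tag, although 129 tags passed an unadjusted p under 0.05. These within-tissue tests compare 1 library with 1 and take the spread from the other tissues, so their p-values measure too little of the spread.

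Within stomach, 45 tags were called female higher and 12 male higher, where 13.2% and 10.5% of all features were. The difference from the male over female value of the other 6 tissues was called for 37 of the 612 tags, where 19.6% of all features had it.

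**Figure D5:**
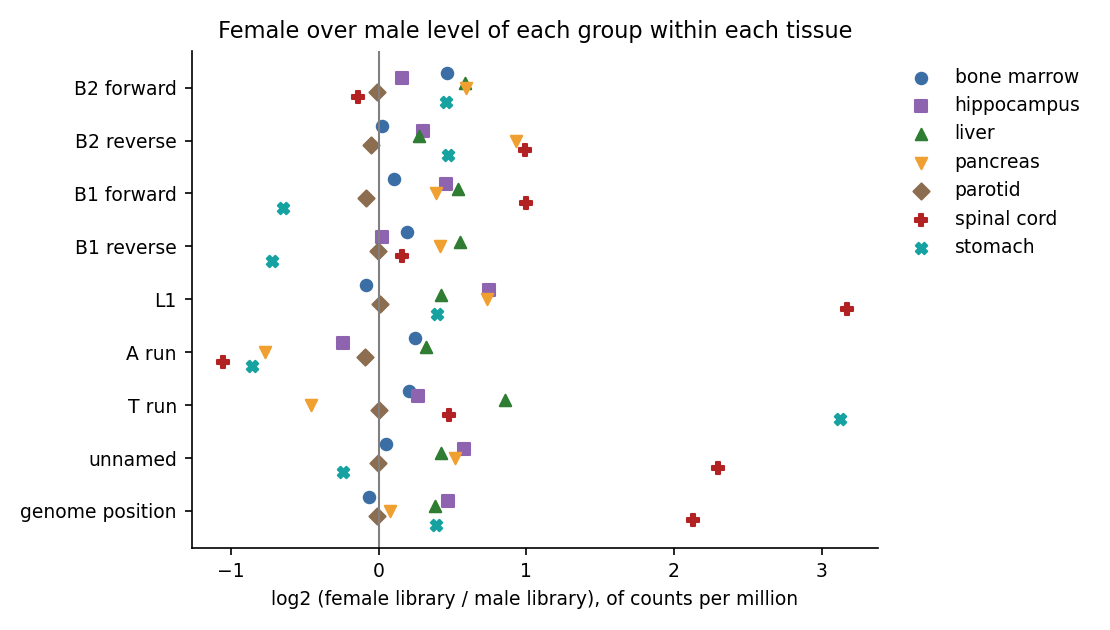
Female over male level of each sequence group in each tissue, on a log2 axis where 0 means equal. In spinal cord L1 (9.02-fold) and the unnamed tags (4.92-fold) lie above 0 while B2 forward (0.909-fold) lies near it, and in stomach the T run lies above 0 and the A run below.

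Genes that restrain repeats were followed as a group of 25, among them DNA methyltransferases, histone H3 lysine 9 methyltransferases and nucleic acid deaminases or nucleases, and 24 were tested. In bone marrow 13 were higher and none lower, where 18.5% of all features were higher. Dnmt1, which maintains DNA methylation, was read at 106 and 92.3 CPM there and at 0.343 to 25.2 CPM elsewhere (log2 3.23 ± 0.25, adjusted p = 1.02e-08). Uhrf1, which guides Dnmt1 to newly copied DNA, was read at 46.8 and 39.1 CPM and at most 3.13 CPM elsewhere. Apobec3, a cytidine deaminase that acts on retroelements, was read at 93.1 and 84.3 CPM and at most 12.1 CPM elsewhere (4.17 ± 0.25, adjusted p = 4.93e-10). Markers of dividing cells summed to 491 and 485 CPM in bone marrow and at most 18.2 CPM elsewhere, and their part in this was not tested.

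In the nervous tissues the same group was mixed. In hippocampus 1 of 24 was higher (Cbx5, a heterochromatin protein, log2 1.17) and 4 were lower, where 28.4% and 12.4% of all features were. The lower genes included Apobec3 (-3.72 ± 0.47, adjusted p = 4.73e-06) and Samhd1, which depletes nucleotides for reverse transcription (-1.69 ± 0.38, adjusted p = 0.00130). In spinal cord Cbx5 (1.07) and the RNA-editing enzyme Adar (1.15) were higher and the RNA helicase Mov10, Apobec3 and Samhd1 lower (-2.39, -2.08 and -1.31), where 27.8% and 8.64% of all features were. Liver had 2 higher and 4 lower (17.6% and 10.4% of all features), parotid gland 3 and 1 (10.7% and 3.87%), pancreas 0 and 1 (6.55% and 2.79%), and stomach 0 and 1 (18.4% and 3.43%). Between hippocampus and spinal cord 1 was called, Mov10 at 2.18, where 5.62% of all features were.

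Tags just short of the limit of more than 100 genome matches were few. Tags with 91 to 100 genome matches held 857 counts in all, with a median of 4 counts per tag against 15 for repeat-assigned tags. Their sum was 133 and 18.5 CPM in female and male spinal cord, 49.99 and 36.5 CPM in hippocampus and at most 3.93 CPM elsewhere. The female spinal cord library was thus the highest on both sides of the limit.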

How the data were processed

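Tag counts were taken as the authors deposited them, 1 table of 20-base tags for each of 14 libraries, with a class code and description per tag. Per the labels' protocols, mRNA was reverse transcribed, cut with DpnII, and the bases at the 3′-most site were cloned on microbeads and sequenced. The aligner, genome build and code legend were not given in the sources used here. Code 0 rows carry 1 name only, so each tag was a feature in place of the planned repeat names. Gene clusters (codes 1 to 4) and code 0 tags were fitted together in edgeR 4.0.16 (R 4.3.3), with library size set to all counts of a file, TMM, filterByExpr by tissue, terms for tissue and sex, quasi-likelihood tests and Benjamini-Hochberg adjustment over all features. A call needed adjusted p under 0.05 and, except for the tissue effect and sex, a fold of at least 2. Sums per family and sex within 1 tissue were added after seeing the data. Named tags were the 15 most abundant and up to 4 called per direction with the smallest p, first those whose libraries lay outside all others. In simulated counts for the liver comparison over 15114 features, 73% of 200 features changed by log2 of 2 were recovered and 8 unchanged ones were called. The simulation gave all features a common dispersion and, apart from these 200, the same mean in every tissue. Its rates therefore do not describe the fits to the deposited counts. Alternatives were other scaling, DESeq2 1.42.0, no filter, no sex term, no tags of 1 count and leaving out each library. Totals of 2194028 to 3834568 counts limit precision, and intervals and the limit of 3 counts for a zero cover counting error only. The members and lists were chosen with earlier results of these data known.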

Additional observations from a re-analysis of the deposited data

Results flagged for a closer look

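In stomach the male over female difference stood apart from that of the other 6 tissues, by an interaction term in edgeR's quasi-likelihood fit, for 37 of the 612 tested repeat tags and for 4 of the 12 most abundant families. The same term was called for 19.6% of all features, so the share of tags (37) is below that background. The T run differed by -3.21 on the log2 scale (adjusted p = 7.09e-11), toward the female library. B1 forward family 6 differed by 1.40 (adjusted p = 0.00126), B1 forward family 11 by 1.48 (adjusted p = 0.00420) and the unnamed family 12 by 1.09 (adjusted p = 0.0265), all toward the male library. The female stomach library also held 18.6% unassigned counts against 4.18%, and its part in these differences was not tested. Each side of this difference is 1 library, and the fit takes the spread from the other tissues, while the stomach pair was the farthest apart over genes (chi-square per degree of freedom 67.7). These p-values are therefore too small.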

How the results depend on the processing

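Of 59 results for single named tags, 33 kept their direction and call under every alternative. Scaling by library totals gave 515 calls in hippocampus, 366 in pancreas and 95 in parotid gland, and reversed 3 pancreas results: the tags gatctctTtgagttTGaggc (-1.34) and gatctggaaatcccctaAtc (-1.50) and B1 forward family 6 (-1.84). DESeq2's test called 167 tags in hippocampus, 231 in spinal cord and 5 between these tissues. DESeq2 size factors gave 1 call for sex. With no filter there were 702 calls in spinal cord, 7 between hippocampus and spinal cord and 75 for sex, all female higher. With no sex term there were 5 between hippocampus and spinal cord. Over assigned counts the male over female share was -0.315 and passed the test. Leaving out 1 library at a time, calls ranged from 45 to 118 in bone marrow, 175 to 454 in hippocampus, 46 to 108 in liver, 7 to 35 in pancreas, 15 to 67 in parotid gland, 77 to 700 in spinal cord, 43 to 91 in stomach, 1 to 32 between hippocampus and spinal cord, and 0 to 112 for sex. In the 7 tissue comparisons the lowest counts came without a library of the tissue itself, except in stomach (43, without female pancreas), and the highest without a stomach library. The spinal cord count of 77 was without its female library. Leaving out a library lowers the number of libraries the filter asks for, so more tags were tested (970 without female stomach, for example). Except where stated above, the shares of all features called under these alternatives are not given, so the counts are a description. The spread of the share between tissues kept its call in every alternative (p from 0.000237 to 0.00394). The labels give no replicate numbers, and the female and male libraries of a tissue were paired in the test of the share and through the tissue and sex terms of the fits. Leaving out the leading tag of each repeat name was run for the leading tag of all only, since the tag is the feature. A tag not read in a library may stand at up to 3 counts there, or 0.782 to 1.37 CPM.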
